A study of Mus musculus with 2 samples.

Results

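C-type lectin receptors of myeloid cells are surface proteins that recognise sugars, lipids and signals of damage on microbes, dying cells and neighbouring cells. A set of 9 such genes was chosen by symbol: Clec4a2, Clec4d, Clec4e, Clec4n, Clec5a, Clec7a, Clec10a, Clec12a and Clec2d. Probes were assigned to them through the RefSeq transcript each probe is listed under. Of the 9 genes, 8 had a probe, 1 probe each, among 20145 genes named on the array, and the extraction software called all 8 well above background on both arrays, among 13843 genes so called. No probe matched Clec7a, the beta-glucan receptor Dectin-1, by the transcripts the RefSeq table holds for it, and it was not analysed here. Probes listed under accessions outside that table were left unnamed, so this does not show that the array has no Clec7a probe.

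Bone marrow cells of C57BL/6 mice were cultured for 4 days with 5% FBS and either 40 ng/ml GM-CSF plus 40 ng/ml IL-6 (GM-CSF + IL-6) or 40 ng/ml GM-CSF without IL-6 (GM-CSF ONLY), so that both cultures received GM-CSF. GM-CSF drives the growth of granulocytes and macrophages, and IL-6 is an inflammatory cytokine. The labels call the product myeloid-derived suppressor cells (MDSCs), a name for immature myeloid cells able to suppress T cells. The comparison asks how the transcripts of the culture with IL-6 differ from those of the culture without it. Each culture was hybridised to 1 Agilent array with Cy3, a fluorescent dye, so there were 2 samples, no replicates and no test. No difference below has a replicate check, and having 1 array per condition limits how precise any value is. The labels do not give the number of mice behind a culture.

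The arrays had 57.9% (GM-CSF + IL-6) and 59.1% (GM-CSF ONLY) of probes well above background, and shared a slide and a scan. All 9 of 9 myeloid markers listed, among them Itgam, Spi1 and S100a8, were measured on both arrays. In a mixed culture, fewer cells of a type and less RNA per cell cannot be told apart. Signals below are the deposited processed intensities scaled so that both arrays have the same 75th percentile. A log2 ratio is the GM-CSF + IL-6 value minus the GM-CSF ONLY value, and its error is a technical SD, the spread of spot log2 ratios among repeatedly printed probes of like signal. That SD was 0.05 for the brightest, 0.09 for dim and 0.24 for the dimmest probes, and it holds spot error only, not the error of labelling or culture.

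The receptors fall into activating and inhibitory types by background knowledge. Mincle (Clec4e), MCL (Clec4d) and Dectin-2 (Clec4n) carry no signalling motif of their own and pair with the Fc receptor gamma chain (Fcer1g), while MDL-1 (Clec5a) pairs with DAP12 (Tyrobp). Both adaptors recruit the kinase Syk, which acts through Card9, Bcl10 and Malt1 on NF-kB and on cytokine genes. DCIR (Clec4a2) and MICL (Clec12a) have an inhibitory tyrosine motif that recruits phosphatases such as Ptpn6. The Clec2d product, Clr-b, is different again, since it is a ligand on many cells for an inhibitory receptor of natural killer cells, the product of Klrb1b.

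The 8 genes did not move together. With IL-6, 2 genes were higher, Clec2d and Clec12a, and 6 were lower, Clec4a2, Clec4d, Clec4n, Clec10a, Clec5a and Clec4e. Among all 13843 genes measured, 43.8% were higher and 56.2% lower. The median log2 ratio of the 8 genes was -0.16, against -0.02 for all genes measured. At a size of 1.2-fold, 2 members were higher, where 6.36% of all genes were, and 2 were lower, where 5.97% of all genes were. At 1.5-fold, 2 members were higher, where 1.02% of all genes were, and 1 was lower, where 0.527% of all genes were. Of these 3, Clec12a and Clec4a2 lie in the lowest 25% by signal. The count was 1 (Clec2d) with that part left out. It was 0 with normexp background correction followed by quantile normalization, where 0.173% of all genes were past 1.5-fold upwards and 0.0795% downwards.

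The promoter stretches of the 4 genes past 1.2-fold are shown because they are the members that differed most between the cultures. The 250 bases before the annotated start, from RefSeq on GRCm38.p6, were searched on both strands for TTCNNNGAA (STAT factors), TGANTCA (AP-1), TTGCNNAA (C/EBP) and GAGGAAGT (PU.1). Capitals mark matches.
Clec2d promoter, chr6:129180365-129180614, plus strand: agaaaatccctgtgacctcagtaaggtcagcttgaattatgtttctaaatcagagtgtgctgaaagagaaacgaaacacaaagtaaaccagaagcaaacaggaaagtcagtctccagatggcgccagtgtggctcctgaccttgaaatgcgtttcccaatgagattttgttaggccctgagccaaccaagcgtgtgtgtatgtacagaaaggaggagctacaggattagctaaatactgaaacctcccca
Clec12a promoter, chr6:129349994-129350243, plus strand: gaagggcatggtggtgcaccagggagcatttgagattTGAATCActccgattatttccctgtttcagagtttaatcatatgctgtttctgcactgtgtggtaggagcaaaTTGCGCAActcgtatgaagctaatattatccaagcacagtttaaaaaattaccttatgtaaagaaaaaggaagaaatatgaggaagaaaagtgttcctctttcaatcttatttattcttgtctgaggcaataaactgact
Clec4d promoter, chr6:123261857-123262106, plus strand: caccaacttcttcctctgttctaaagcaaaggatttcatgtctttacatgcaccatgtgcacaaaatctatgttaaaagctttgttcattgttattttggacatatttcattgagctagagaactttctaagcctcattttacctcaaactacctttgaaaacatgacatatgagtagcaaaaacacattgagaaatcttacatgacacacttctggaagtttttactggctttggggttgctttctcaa
Clec4a2 promoter, chr6:123122440-123122689, plus strand: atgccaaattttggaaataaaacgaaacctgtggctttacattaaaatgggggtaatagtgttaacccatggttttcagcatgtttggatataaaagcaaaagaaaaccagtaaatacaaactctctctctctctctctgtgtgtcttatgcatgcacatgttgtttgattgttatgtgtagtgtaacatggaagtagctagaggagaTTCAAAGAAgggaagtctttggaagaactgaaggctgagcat

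Promoters of 7 of the 9 genes matched the RefSeq table by symbol. TTCNNNGAA was present in 1 of these 7, that of Clec4a2 (TTCAAAGAA, beginning 42 bases before the start), and in 7.02% of 32851 promoters of this length. TTGCNNAA was present in 2 of 7, those of Clec12a and Clec4e, and in 9.56% of all promoters. TGANTCA was present in 1 of 7, that of Clec12a, and in 6.75% of all, and GAGGAAGT in 0 of 7 and in 2.44% of all. No match overlapped another in the stretches printed. A match is a run of letters and was not tested as a binding site.

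Of the receptors paired with the Fc receptor gamma chain, Clec4d differed most. Clec4d, which forms a receptor complex with Mincle, had a scaled signal of 19550 in the GM-CSF + IL-6 culture, against 24455 in the GM-CSF ONLY culture. The log2 ratio was -0.32 ± 0.05 (technical SD, 1 spot per array), so the GM-CSF + IL-6 signal was 79.9% of the GM-CSF ONLY signal. The difference was 7.15 times its technical SD. Among genes above the lowest 25% by signal, as Clec4d is, 3.16% were lower by 1.2-fold or more.

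Clec4n, whose product binds mannans of fungal walls, had a scaled signal of 62063 in GM-CSF + IL-6 and 71244 in GM-CSF ONLY, a log2 ratio of -0.20 ± 0.05. Clec4e, whose product recognises the cord factor of mycobacteria, had 6121 in GM-CSF + IL-6 and 6800 in GM-CSF ONLY, a log2 ratio of -0.15 ± 0.05. All 3 genes of this type were therefore lower with IL-6 by more than 3 technical SDs and by less than 1.5-fold. The share of all genes past 3 technical SDs was not counted. Among genes above the lowest 25% by signal, log2 ratios had an SD of 0.14 and a 5th to 95th percentile of -0.23 to 0.21. Clec4n and Clec4e lay within that range, and Clec4d lay below it. None of the 3 spots was saturated or marked as an outlier on either array.

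Clec5a and Clec10a were also lower, by about the same amount. Clec5a, the DAP12-coupled receptor, had a scaled signal of 190.8 in GM-CSF + IL-6 and 212.2 in GM-CSF ONLY, a log2 ratio of -0.15 ± 0.09, or 1.68 times its technical SD. Clec10a, which encodes the macrophage lectin for galactose and N-acetylgalactosamine, had 2554 in GM-CSF + IL-6 and 2858 in GM-CSF ONLY, a log2 ratio of -0.16 ± 0.05. Neither gene reached 1.2-fold, and Clec5a was the only member whose difference was under 2 technical SDs. The share of all genes under 2 technical SDs was not counted. Both lay within the 5th to 95th percentile of genes above the lowest 25% by signal, -0.23 to 0.21.

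**Figure D1:**
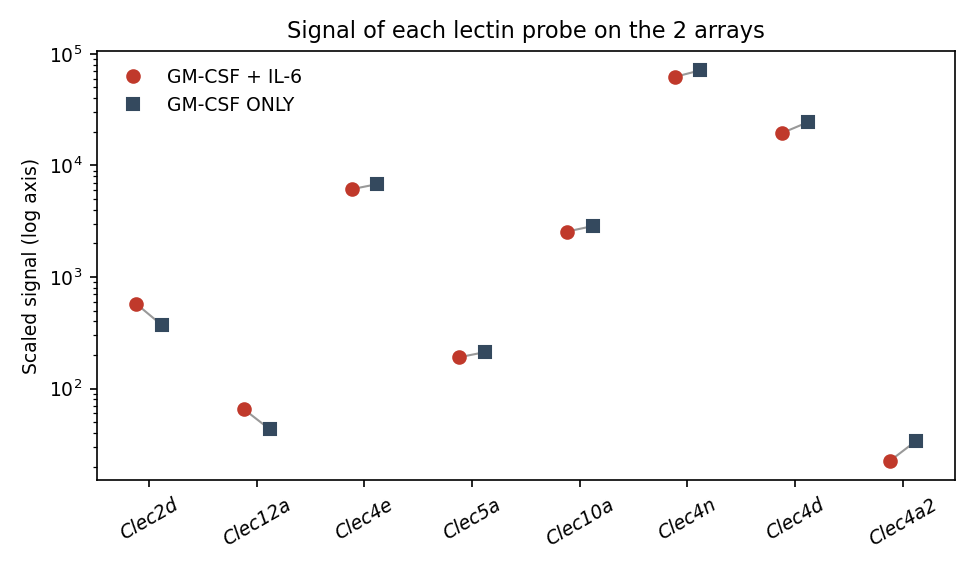
Scaled signal (log axis) of each of the 8 lectin probes on the GM-CSF + IL-6 array (red circles) and the GM-CSF ONLY array (dark squares), 1 array per condition and so no error bars. The red circle lies above the square for Clec2d and Clec12a and below it for the other genes; levels of different probes are not comparable.

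Clec2d had the largest log2 ratio of the 8 genes. Its scaled signal was 575.8 in the GM-CSF + IL-6 culture, against 369.3 in the GM-CSF ONLY culture, a log2 ratio of 0.64 ± 0.09, or 1.56-fold higher. The difference was 7.03 times its technical SD. The deposited intensities before scaling were 541.5 in GM-CSF + IL-6 and 392.8 in GM-CSF ONLY, so the direction did not come from the scaling. Among the 10382 genes above the lowest 25% by signal, 2.64% were past 1.2-fold upwards with IL-6. Only 6 (0.0578%), Clec2d among them, were past 1.5-fold upwards, and 9 (0.0867%) were past it downwards. Clec2d was already known to be among the genes that differed most when the list was drawn up, so its place among them is a description.

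The Klrb1 family encodes lectin-like receptors of lymphocytes, among them the receptor for the Clec2d product. Of 5 family genes listed, 4 were measured, 1 higher and 3 lower with IL-6, and 0 reached 1.2-fold in either direction. Among all genes measured, 6.36% were past 1.2-fold upwards and 5.97% downwards. Klrb1b, which encodes that inhibitory receptor, had a scaled signal of 321.9 in GM-CSF + IL-6 and 349.5 in GM-CSF ONLY, a log2 ratio of -0.12 ± 0.09, and its other 2 probes gave -0.08 and -0.08. Klrb1a had a log2 ratio of -0.20 ± 0.24, Klrb1 0.09 ± 0.24 and Klrb1f -0.01 ± 0.09.

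The 2 inhibitory receptor genes had values on opposite sides of 0, both at low signal. Clec12a, whose product senses uric acid crystals and dampens neutrophil responses, had a scaled signal of 65.3 in GM-CSF + IL-6 and 43.2 in GM-CSF ONLY, a log2 ratio of 0.60 ± 0.24. Clec4a2, the inhibitory receptor of dendritic cells and monocytes, had 22.5 in GM-CSF + IL-6 and 33.8 in GM-CSF ONLY, a log2 ratio of -0.59 ± 0.24. The differences were 2.50 and 2.46 times their technical SDs. The SD used for both was pooled over probes with signals from 21.4 to 166.8. Clec4a2 lies near the bottom of that range, where the spot error was not estimated apart.

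Both spots were dim, and that of Clec4a2 lay near its local background. The mean pixel brightness of the Clec4a2 spot was 53.3 in GM-CSF + IL-6, where the local background median was 57, and 67.1 in GM-CSF ONLY, where it was 50.5. The extraction software, which subtracts a fitted background surface, called it well above background on both arrays. The Clec4a2 ratio thus rests on a spot that was no brighter than its local surroundings in GM-CSF + IL-6. The Clec12a spot had 93.2 in GM-CSF + IL-6 over a local background of 43, and 74.9 in GM-CSF ONLY over 41. Among the 3461 genes in the lowest 25% by signal, where both genes lie, 3.9% were past 1.5-fold upwards with IL-6 and 1.85% downwards. The share past 1.5-fold is thus larger among dim genes than above them, where it was 0.0578% and 0.0867%.

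**Figure D2:**
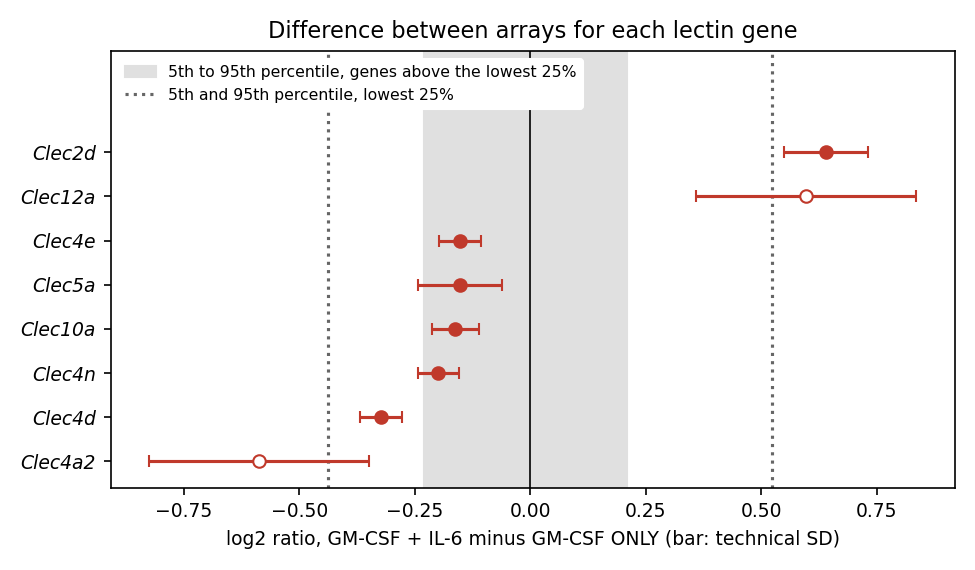
Log2 ratio, GM-CSF + IL-6 minus GM-CSF ONLY, of each lectin gene with its technical SD as a bar; open circles are genes in the lowest 25% by signal. The grey band (-0.23 to 0.21) and the dotted lines (-0.44 and 0.52) give the 5th to 95th percentile of genes above and in the lowest 25%; Clec2d and Clec4d lie outside the band, and Clec12a and Clec4a2 outside the dotted lines.

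Position on the array was examined because spots near its edges can differ locally. The Clec12a spot was in row 2 and the Clec4a2 spot in row 33, column 147, of 384 rows and 164 columns, so that both were in the first 48 rows. The other 6 were in neither the first 48 rows nor the last 20 columns. Well-above-background spots within 5 rows and 5 columns had a median log2 ratio of -0.01 around Clec12a (39 spots), 0.03 around Clec4a2 (67 spots), -0.01 around Clec2d (64 spots) and -0.01 around Clec4d (67 spots). With the local median subtracted, the log2 ratios were 0.61, -0.62, 0.65 and -0.32 for these genes.

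**Figure D3:**
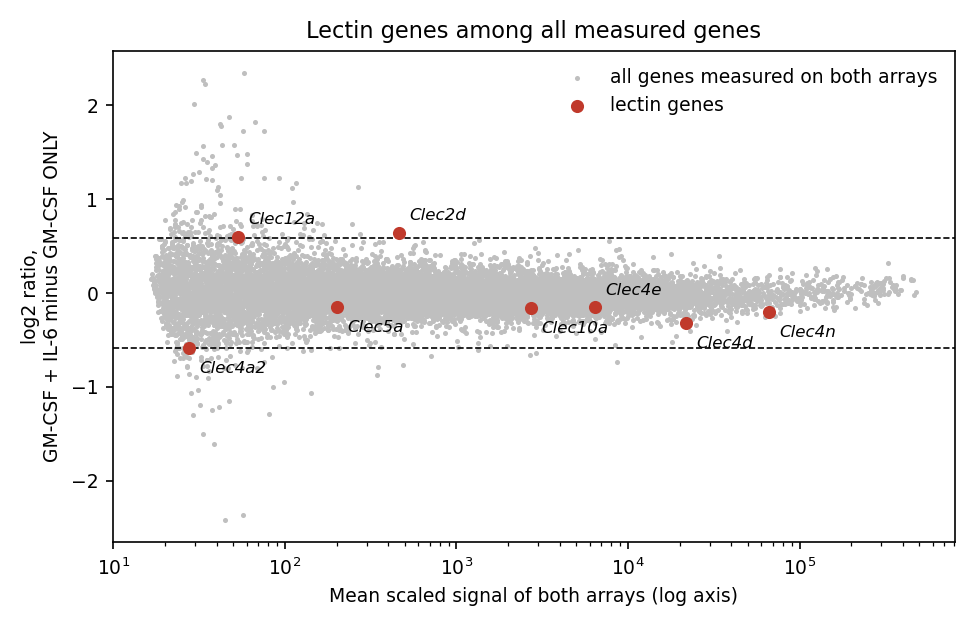
Log2 ratio, GM-CSF + IL-6 minus GM-CSF ONLY, against mean scaled signal (log axis) for the 13843 genes measured on both arrays (grey) and the 8 lectin genes (red), with dashed lines at 1.5-fold. Clec2d lies above the grey cloud at its signal, while Clec12a and Clec4a2 lie on the dashed lines where the cloud is widest.

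The genes also differ by place in the genome, which played no part in their choice. By gene order in the RefSeq annotation, 7 of the 8 measured genes are on chromosome 6 and Clec10a is on chromosome 11. Clec4a2, Clec4n, Clec4d and Clec4e lie in an unbroken run of 9 Clec4 genes, and all 9 were measured. Of these, 8 were lower with IL-6. The median log2 ratio of the 9 genes was -0.29, the lowest -0.59 (the dim Clec4a2) and the highest 0.04, where 56.2% of all genes were lower. The lower ones include Clec4a2, Clec4n, Clec4d and Clec4e, counted again here. Of the 5 genes not in the list, 4 were lower, with a median of -0.29.

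The 5 genes of this run that were not in the list were looked at after the values of the others were seen. Clec4a1, a close relative of Clec4a2, had a scaled signal of 4312 in GM-CSF + IL-6 and 5794 in GM-CSF ONLY, a log2 ratio of -0.43 ± 0.05. Clec4b1 had 2902 in GM-CSF + IL-6 and 3665 in GM-CSF ONLY, a log2 ratio of -0.34 ± 0.05, and -0.13 on its other, dimmer probe. Clec4a3 had a log2 ratio of -0.29 ± 0.06 and Clec4b2 -0.17 ± 0.06, while Clec4a4 had 0.04 ± 0.09. Clec4a1 to Clec4a4 are similar in sequence, and binding of one gene's RNA to another's probe was not tested.

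Clec2d and Clec12a lie in a second run on chromosome 6, which holds 10 genes and ends with Clec7a. For both runs only protein-coding genes were counted. A run took every such gene between chosen members (Clec4a2 to Clec4e, or Clec2d to Clec7a), whatever its symbol. From these ends it was extended outward while the next symbol began with Clec. Of 6 genes measured in the second run, 4 were higher and 2 lower with IL-6, where 43.8% of all genes were higher. The higher ones include Clec2d and Clec12a, counted again here. Of the 4 genes not in the list, 2 were higher and 2 lower, with a median log2 ratio of -0.03. Of the higher genes of this run, Clec12a and Clec2e lie in the lowest 25% by signal. Cd69, an early activation antigen that lies next to Clec2d, had a scaled signal of 1911 in GM-CSF + IL-6 and 1565 in GM-CSF ONLY, a log2 ratio of 0.29 ± 0.06. Clec2e had 0.04 ± 0.24 and Clec9a, a receptor of dead cells on dendritic cells, -0.11 ± 0.24. Clec1b had -0.27 ± 0.09 on its brightest probe, with -0.21 and -0.005 on its other 2.

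The adaptors and kinases below the activating lectins differed by small amounts. Of 21 genes of the Fc receptor gamma chain and DAP12 pathway, all 21 were measured, 5 higher and 16 lower. Their median log2 ratio was -0.09, and 0 reached 1.2-fold in either direction. Among all genes measured, 56.2% were lower, and 6.36% were past 1.2-fold upwards and 5.97% downwards. Fcer1g had a scaled signal of 97149 in GM-CSF + IL-6 and 93998 in GM-CSF ONLY, a log2 ratio of 0.05 ± 0.05. Tyrobp had 101761 in GM-CSF + IL-6 and 110320 in GM-CSF ONLY, a log2 ratio of -0.12 ± 0.05.

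The Fcer1g value was within about 1 technical SD of 0, while its lectin partners Clec4d, Clec4n and Clec4e were lower. Syk had a log2 ratio of -0.15 ± 0.05 and Card9 0.02 ± 0.09. The largest ratios of this pathway were -0.24 ± 0.09 for the Src family kinase gene Lyn, -0.22 ± 0.05 for the NF-kB subunit gene Rela and -0.19 ± 0.05 for Bcl10. Of 10 inhibitory phosphatase and regulator genes, 4 were higher and 6 lower. Their median was -0.02, and 0 were past 1.2-fold. Ptpn6, the phosphatase recruited by the inhibitory lectins, had -0.03 ± 0.05. The largest of this list were Inppl1 at -0.25 ± 0.06, Ptpn11 at -0.17 ± 0.05, Dok3 at 0.12 ± 0.05 and Inpp5d at -0.09 ± 0.05.

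Cytokine and effector genes known to follow fungal lectin signalling lay on both sides of 0. Of 21 listed, 15 were measured, 7 higher and 8 lower, and the median was -0.03. At 1.2-fold, 2 were higher, Tnf at 0.48 ± 0.02 and the immediate early gene Egr1 at 0.35 ± 0.05. Another 2 were lower, Nos2, which makes nitric oxide, at -0.31 ± 0.04 and the IL-12 subunit gene Il12a at -0.53 ± 0.24. The shares of all genes past 1.2-fold were 6.36% upwards and 5.97% downwards.

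Other C-type lectins lay on both sides of 0. Of 42 listed, 28 were measured, 13 higher and 15 lower, with a median log2 ratio of -0.02. At 1.2-fold 6 were higher, where 6.36% of all genes were, and 5 were lower, where 5.97% of all genes were. The higher genes include Cd69, and the lower ones Clec4a1, Clec4a3, Clec4b1 and Clec1b, all given above. Clec4b1 and Clec1b reached 1.2-fold only on their brightest probe. None of the 28 reached 1.5-fold in either direction. The largest besides Clec4a1 were Asgr1 at 0.53 ± 0.24, Cd209c at 0.38 ± 0.09 (0.12 on its other probe) and Clec2l at 0.38 ± 0.24. Asgr1 and Clec2l lie in the lowest 25% by signal.

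**Figure D4:**
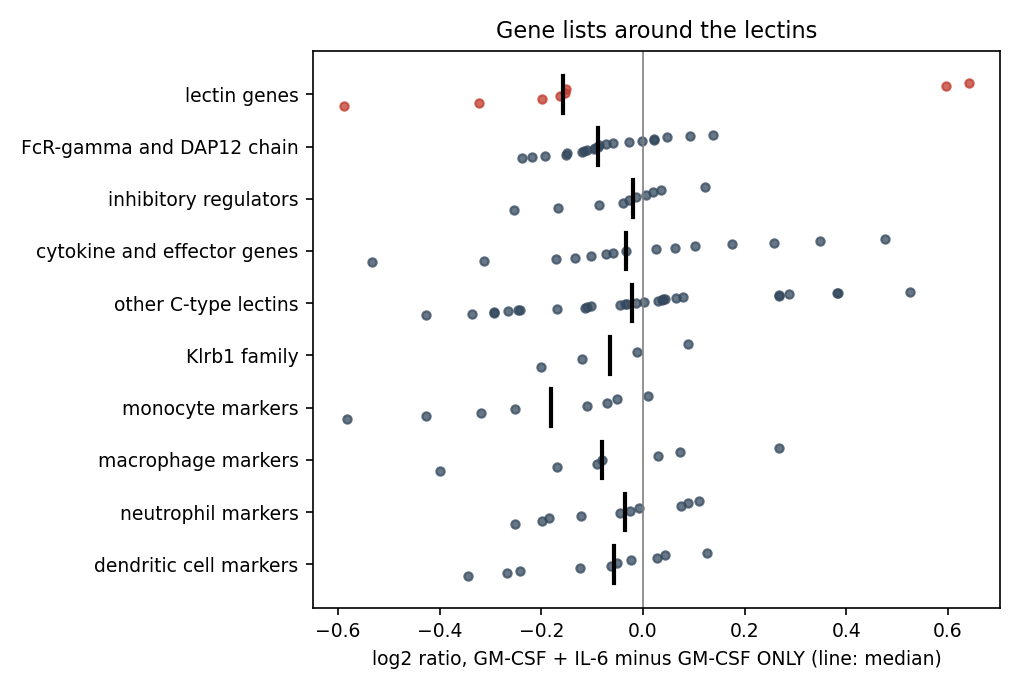
Log2 ratio, GM-CSF + IL-6 minus GM-CSF ONLY, of every measured gene in the lectin list (red), the 5 related lists and 4 marker lists (dark), with black lines at the medians and genes of a list spread vertically by value. The lectin median lies at -0.16 with 2 genes far to the right, and the monocyte marker median at -0.18.

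Many of these lectins are known from monocytes and macrophages, and monocyte markers differed in the same direction as the 6 lower lectins. Of 8 monocyte markers, 7 were lower with IL-6, where 56.2% of all genes were lower. The median log2 ratio of these markers was -0.18. Their summed scaled signal was 92909 in GM-CSF + IL-6 and 108121 in GM-CSF ONLY. The range ran from -0.58 for Cx3cr1 to 0.01 for F13a1, where the other F13a1 probe gave -0.19. Csf1r was at -0.25 ± 0.05 on its brightest probe, with -0.20 and 0.26 on its other 2, and that probe, at 57302 in GM-CSF + IL-6 and 68232 in GM-CSF ONLY, holds most of the sum. Macrophage markers had 3 of 7 higher and a median of -0.08, dendritic cell markers 3 of 10 and -0.06, and neutrophil markers 3 of 10 and -0.04. Mast cell and basophil markers had 7 of 8 higher and a median of 0.17. The general myeloid markers had 5 of 9 higher and a median of 0.04. Lists of more distant cell types had medians of -0.13 for T and NK cell markers (5 of 6 lower), -0.12 for megakaryocyte (3 of 5 lower), -0.04 for B cell (4 of 5 lower) and -0.01 for eosinophil markers (3 of 5 lower). The medians were 0.34 for 2 erythroid markers and 0.26 for 4 stromal markers, each with 1 gene past 1.5-fold. Among macrophage and dendritic cell markers, Cd68 (macrophage) had no assigned probe, Xcr1 (dendritic cell) was not well above background on either array, and the others were measured. The part of these cell types in the lectin values was not tested.

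**Figure D5:**
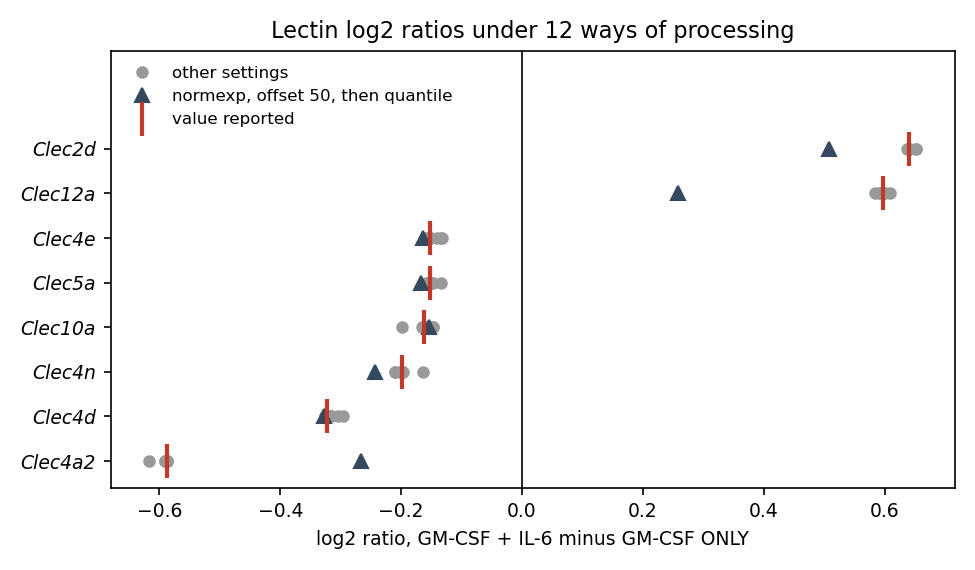
Log2 ratio, GM-CSF + IL-6 minus GM-CSF ONLY, of each lectin gene under 12 ways of processing, with the reported value as a red line, normexp with an offset of 50 followed by quantile normalization as a triangle and the others as grey circles. No gene crossed 0, and the triangles of Clec2d, Clec12a and Clec4a2 lie nearer to 0 than the other points. Runs that changed only the dim-probe filter, outlier spots, probe choice or array edges could only repeat the reported value or drop the gene.

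The directions of all 8 genes were the same in every processing run in which they had a value. Some runs changed only the filter on dim probes, the outlier spots, the choice of probe or the array edges. Each gene had 1 probe, not marked as an outlier, so these runs could only repeat its value or drop the gene. Clec2d ran from 0.51 to 0.65, Clec4d from -0.33 to -0.30, Clec4n from -0.24 to -0.16 and Clec4e from -0.16 to -0.13. Clec12a and Clec4a2 moved most, to 0.26 and -0.27 with normexp background correction at an offset of 50 followed by quantile normalization, where neither gene nor Clec2d (0.51) reached 1.5-fold. In that run 0.173% of all genes were past 1.5-fold upwards, against 1.02%, and 0.0795% downwards, against 0.527%. With quantile normalization alone Clec12a and Clec4a2 were at 0.58 and -0.59. The background correction and the offset were not changed apart from each other.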

How the data were processed

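RNA of 2 cultures was measured, 1 per condition, grouped by the treatment in the labels. Per the file headers, the deposited spot intensities come from Agilent Feature Extraction 10.7.1.1, which detrended them over the array and multiplicatively and made no separate background correction. They were not scaled between arrays (75th percentiles 486.2 for GM-CSF + IL-6 and 549.7 for GM-CSF ONLY). The spot flags (well above background, saturated, outlier) are other values deposited in the same files. The authors also deposited log2 values of 55821 probes, normalized between the arrays, used as an alternative; both columns have a median of 5.10, and the normalization software is not named in the labels or file headers.

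The log2 intensity minus the 75th percentile over non-control spots was used, without spots marked as outliers. A gene took its brightest probe that was well above background on both arrays in at least 50% of its spots. RefSeq accessions named 28116 probes, and 26582 of them had a single symbol in a RefSeq table of GRCm38.p6. The technical SD was pooled in 5 bins over 266 probes with at least 5 spots and divided by the square root of a gene's spots. With 1 array per group no test was made. Calculations used Python 3.11.15, numpy 2.4.6 and pandas 2.3.3, and limma 3.58.1 in R 4.3.3 for quantile, cyclic loess and normexp (offset 50) values. The calculation was tested on simulated data. Named were all members, 4 genes with the largest absolute log2 ratio per list, and Fcer1g, Tyrobp, Syk, Card9 and Ptpn6; Csf1r, Cx3cr1, F13a1 and the chromosome neighbours were chosen after their values were seen. The members and lists were chosen with earlier results of these data known.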

Additional observations from a re-analysis of the deposited data

How the results depend on the processing

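The median log2 ratio of the 8 genes lay between -0.17 (normexp, then quantile) and -0.15 (cyclic loess) under the 11 other settings. No gene changed direction in any setting that gave it a value. The settings on dim probes, outlier spots, probe choice and array edges could only repeat a gene's value or drop the gene. With normexp background correction at an offset of 50 followed by quantile normalization, run only together, 0 members were past 1.5-fold, against 3. The count past 1.2-fold was 3, against 4. Clec12a was at 0.26, Clec4a2 at -0.27 and Clec2d at 0.51. In that setting 0.173% of all genes were past 1.5-fold upwards and 0.0795% downwards, against 1.02% and 0.527%. At 1.2-fold the shares of all genes were 3.0% and 2.23%, against 6.36% and 5.97%. With quantile normalization alone 2 members were past 1.5-fold. The stricter filter on dim probes drops Clec12a and Clec4a2 and left 1 member higher with IL-6, 2 past 1.2-fold and 1 past 1.5-fold. Leaving out the first 48 rows and last 20 columns of spots, an alternative chosen after seeing the data like the subtraction of nearby spots, drops the same 2 genes and gave the same counts of 1, 2 and 1. Signal over background limits Clec12a and Clec4a2. No paired analysis was possible because there was 1 array per condition.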
